A study of Mus musculus with 6 samples.

Results

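The fibroblast growth factor (Fgf) genes were examined in tibialis anterior (TA) muscle, a mostly fast-twitch muscle of the lower leg. They were the 6 genes whose name starts with Fgf among the 709 genes of the authors' table: the ligands Fgf1 and Fgf2, the binding protein Fgfbp1, the receptors Fgfr1 and Fgfr4, and the intracellular homologous factor Fgf11. RNA-seq was performed on 3 NS-DADm and 3 WT mice, 1 library per mouse, all 21 weeks old and labelled as strain C57BL/6 (C57BL/6 J by the mouse methods). NS-DADm mice carry whole-body knock-in missense mutations, a tyrosine changed to alanine, in the deacetylase activation domains of the corepressor NCoR and of a related corepressor. These domains switch on the enzymatic activity of HDAC3, and the comparison asks how loss of that activity changes muscle gene expression. Because the mutations are in every tissue, effects within the muscle and effects from other organs or nerves cannot be told apart. The paper states male mice unless otherwise indicated and age-matched WT controls.

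Most FGFs are signalling proteins that act on nearby cells. Such an FGF binds heparan sulfate in the matrix and a receptor tyrosine kinase on the cell surface. The receptor then signals through the Ras-MAP kinase, PI3 kinase and phospholipase C routes. In skeletal muscle, FGF signalling is best known for keeping satellite cells, the muscle stem cells, dividing and for opposing their differentiation. The homologous factors, of which Fgf11 is a member, stay inside the cell, do not act as classical receptor ligands and bind voltage-gated sodium channels.

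The table lists only genes that the authors called different between these same 6 libraries, so every Fgf gene in it had already been selected for a difference and the tests below are not independent evidence of one. The values are normalized counts, that is, reads divided by a size factor for each library. Within 1e-06 reads, 100% of the values in each library were whole multiples of a common step, and 48.5% to 52.5% of these multiples were odd. One read was therefore taken as worth that step, which was 0.905 to 1.21 normalized counts depending on the library. Read counts given here were computed from the step and are not in the table itself. The reads over the listed genes numbered 1047804 to 1411470 per library, which is part of each library and not its depth. Of 22 genes named Fgf and a number in the GENCODE M21 annotation, which include the intracellular factors, 3 were listed (Fgf1, Fgf2 and Fgf11), and of 4 receptor genes Fgfr1 to Fgfr4, 2. The other 27 annotated names starting with Fgf, among them Fgf6, Fgf7, Fgf21, Fgfr2 and Fgfr3, have no value here, since a gene that is not listed was either not tested or not called.

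In NS-DADm muscles the extracellular ligands Fgf1 and Fgf2, the binding protein Fgfbp1 and the receptor Fgfr1 were higher, and the receptor Fgfr4 and the intracellular Fgf11 were lower. Fgfbp1 rose 3.70-fold, Fgf1 1.86-fold, Fgfr1 1.48-fold and Fgf2 1.43-fold, as ratios of group means. Fgfr4 was 2.44-fold lower and Fgf11 1.80-fold lower. Each gene was tested with limma, a linear model that shares the estimate of spread among genes, on log2(normalized count + 1), with p-values adjusted over the 709 genes. At an adjusted p under 0.05, 4 of the 6 genes were called higher, where 50.9% of the listed genes were, and 2 lower, where 49.1% were. The 2 groups of libraries did not overlap in any of the 6, where 97.9% of the listed genes had no overlap. These shares were built in by the selection of the table. The median log2 fold change was 0.54 over the 6 genes and 0.38 over all 709, and the median of its absolute value was 0.87 over the 6 genes and 0.71 over all 709. A transcript level measured in whole muscle cannot tell fewer cells of a type from less RNA per cell.

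**Figure D1:**
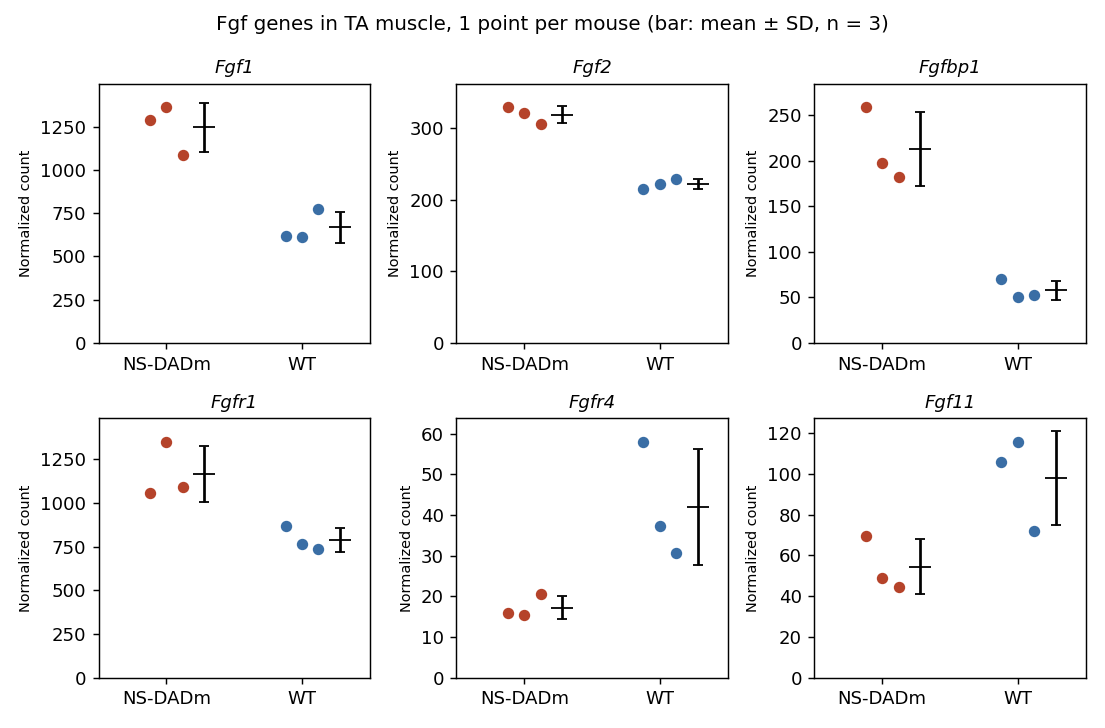
Normalized count (y axis, linear, from 0) of each Fgf gene in the TA muscle of each mouse, with NS-DADm left and WT right and a bar for the mean ± SD of 3 mice. In Fgf1, Fgf2, Fgfbp1 and Fgfr1 the NS-DADm points lie above all WT points, in Fgfr4 they lie below, and in Fgf11 the highest NS-DADm point (69.7) lies just under the lowest WT point (72.0).

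Fgf1, or acidic FGF, is a ligand that leaves cells without a classical signal peptide and can activate all the FGF receptors. It lies on chromosome 18. Its normalized counts were 1285, 1362 and 1089 in NS-DADm muscles, against 617, 614 and 773 in WT muscles. The lowest NS-DADm library stood 315.6 normalized counts above the highest WT library, a gap 1.15 times as wide as the larger of the ranges within a group. The means were 1245 ± 141 in NS-DADm and 668 ± 91.2 in WT (SD, n = 3 each), with a log2 fold change of 0.90 ± 0.13 (standard error, SE, and limma adjusted p = 2.23e-04).

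Fgf2, or basic FGF, is another ligand that is released without a signal peptide and is a potent mitogen of cultured muscle precursors. It lies on the plus strand of chromosome 3 of GRCm38 from 37348346 to 37410108. NS-DADm muscles held 329, 321 and 307 normalized counts of Fgf2, against 216, 222 and 230 in WT muscles. Among the 6 genes these values were the most even within groups, with a coefficient of variation of 3.63% in NS-DADm and 3.15% in WT. The WT values stand for 238, 244 and 239 reads by the step of each library. The exact Poisson 95% interval of 238 reads was 209 to 270, wider than the spread of these 3 counts. That of the lowest NS-DADm read count, 254, was 224 to 287 reads. Such evenness in 3 mice per group thus cannot be read as a trait of the gene. One read was worth 1.21 normalized counts in the NS-DADm library with 254 reads, against 0.905 to 0.960 in WT libraries. These read counts and their intervals therefore do not compare the 2 groups. The gap between the groups was 3.36 times as wide as the larger range within a group, a ratio that rests on these narrow ranges. The log2 fold change was 0.52 ± 0.12 (SE, limma adjusted p = 0.00219). When libraries were scaled by their totals over the listed genes in place of the authors' size factors, it was 0.24 and not called (limma adjusted p = 0.117), and it lay between 0.34 and 0.55 in the other alternatives. That scaling lowered the median of all listed genes by 0.28 on the log2 scale. Of the normalized counts summed over the listed genes, not over the whole library, Ttn made up 26.0% to 31.9% in NS-DADm and 23.4% to 25.9% in WT. Ttn is the gene of the giant sarcomere protein titin. The 3' part of Fgf2 overlaps Nudt6 on the opposite strand over 640 exonic bases, 9.44% of its exon length. The strand setting of the counting is not stated in any source used here. Some Fgf2 reads may thus stem from Nudt6, which was not listed, or reads in the shared bases may have gone uncounted. Gm43439, a processed transcript on the same strand as Fgf2, shares 255 exonic bases with it, 3.76% of the exon length of Fgf2. Gm43439 was not listed either, and reads in that stretch cannot be assigned by strand.

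Fgfbp1 encodes a secreted carrier that binds FGF1 and FGF2, releases them from heparan sulfate and so raises their activity, and in mice it has been described as a muscle-derived factor that protects neuromuscular junctions. It lies on the minus strand of chromosome 5 of GRCm38 from 43978858 to 43981779. Its normalized counts were 259, 198 and 182 in NS-DADm muscles, against 69.7, 50.1 and 52.8 in WT muscles. The lowest NS-DADm mouse was at 317% of the WT mean and the highest at 450%. The means were 213 ± 40.4 in NS-DADm and 57.5 ± 10.6 in WT (SD, n = 3 each). The log2 fold change of 1.87 ± 0.20 (SE, limma adjusted p = 4.15e-05) had the largest absolute value of the 6 Fgf genes, and ranked 48 of 709 by that value. It lay between 1.60 and 2.01 in all 14 alternatives.

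The sequence upstream of Fgfbp1 is shown because this gene had the largest difference, and that of Fgf11 because Fgf11 moved the other way. RefSeq upstream windows (GRCm38.p6) were found for 4 of the 6 genes, namely Fgfbp1, Fgf2, Fgf11 and Fgfr4. The printed windows are the 250 bases before the RefSeq start site, which lies 20 bases upstream of the GENCODE start of Fgfbp1 and 423 bases upstream of that of Fgf11. For Fgf2 and Fgfr4 the RefSeq start lies downstream of the GENCODE start. The Fgfbp1 window is chr5:43981800-43982049 and the Fgf11 window chr11:69802281-69802530, both on the minus strand. Capitals mark E-boxes (CANNTG, searched on both strands), the core sequence bound by myogenic and other basic helix-loop-helix factors.
Fgfbp1: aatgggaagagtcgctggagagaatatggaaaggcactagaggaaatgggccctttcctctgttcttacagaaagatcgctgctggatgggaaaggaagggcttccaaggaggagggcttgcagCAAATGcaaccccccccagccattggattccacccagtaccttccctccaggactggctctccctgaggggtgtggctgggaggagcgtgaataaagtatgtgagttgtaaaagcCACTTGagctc
Fgf11: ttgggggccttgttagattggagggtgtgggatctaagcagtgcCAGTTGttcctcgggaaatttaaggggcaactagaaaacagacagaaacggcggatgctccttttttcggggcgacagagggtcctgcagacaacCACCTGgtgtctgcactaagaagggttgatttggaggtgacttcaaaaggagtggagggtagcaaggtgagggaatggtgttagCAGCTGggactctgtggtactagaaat
The Fgfbp1 window holds 2 E-boxes, which begin 126 and 11 bases before the start site, and the Fgf11 window holds 3, which begin 206, 111 and 27 bases before it. Of 32851 RefSeq windows of the same length, 66.2% hold an E-box. The nuclear receptor half-site AGGTCA, searched on both strands because NCoR acts with nuclear receptors, was not in the windows of these 4 genes, and 14% of all windows hold it. The TATA box (TATAAA, both strands) was likewise not in the 4 windows, against 12.4% of all windows. The GC box (GGGCGG, both strands) was found in the windows of Fgf2 (1 copy) and Fgfr4 (2 copies) and in 32.7% of all windows. None of these motifs overlaps another in the printed windows, and a match is a description of the letters only.

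Fgfr1 encodes the most widely used FGF receptor, a tyrosine kinase made by satellite cells and many other cells of muscle. It lies on the plus strand of chromosome 8 of GRCm38 from 25513654 to 25575718. The 3 NS-DADm muscles had 1055, 1349 and 1090 normalized counts, against 867, 762 and 739 in WT muscles. One NS-DADm mouse stood higher than the other 2, and the gap between the groups, 188 normalized counts, was narrower than the range within NS-DADm. The log2 fold change was 0.56 ± 0.12 (SE, limma adjusted p = 0.00176). It fell to 0.28 but was still called when libraries were scaled by their totals (limma adjusted p = 0.0433), and without NS-DADm replicate 2 it was 0.45 (limma adjusted p = 0.00606). An antisense gene, Gm16159, shares 164 exonic bases with it, 1.66% of its exon length.

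Fgfr4 encodes the FGF receptor that is known for sensing FGF15 in liver and that is also made by dividing myogenic cells. It lies on the plus strand of chromosome 13 of GRCm38 from 55152640 to 55168759. It was the least abundant Fgf gene and ranked 658 of 709 by mean normalized count. Its normalized counts were 15.8, 15.4 and 20.5 in NS-DADm muscles, against 58.0, 37.3 and 30.7 in WT muscles. By the step of each library these values stand for 15, 16 and 17 reads in NS-DADm libraries, against 64, 41 and 32 reads in WT libraries. The exact Poisson 95% interval of the highest NS-DADm read count, 17, was 9.90 to 27.2 reads, and that of the lowest WT read count, 32, was 21.9 to 45.2 reads, so the nearest libraries of the groups overlapped in counting error. Such intervals cover counting error only, since reads without molecular identifiers are not independent molecules. The log2 fold change was -1.20 ± 0.31 (SE, limma adjusted p = 0.00371). WT replicate 1 held the highest value, and without it the log2 fold change was -0.95 (limma adjusted p = 0.0206).

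Fgf11 encodes a homologous factor that is retained in the cell, where this group of proteins modulates sodium channels. It lies on the minus strand of chromosome 11 of GRCm38 from 69796068 to 69801857. The normalized counts of Fgf11 were 69.7, 49.0 and 44.7 in NS-DADm muscles, against 106, 116 and 72.0 in WT muscles. The highest NS-DADm library and the lowest WT library were only 2.33 normalized counts apart, which is 0.0534 of the larger range within a group. By the step of each library they held 66 reads (exact Poisson 95% interval 51.0 to 84.0) in the NS-DADm library and 75 reads (59.0 to 94.0) in the WT library, a difference within counting error. One read was worth 1.06 normalized counts in the former and 0.960 in the latter, so part of the difference in reads is depth. The log2 fold change of -0.83 ± 0.25 (SE, 95% interval -1.38 to -0.29, limma adjusted p = 0.00670) had the largest adjusted p of the 6 genes. It reached 0.0326 without WT replicate 2, the highest over the 14 alternatives. Fgf11 lies 7.34 Mb from Ncor1, the gene of NCoR, so for it the mutation and any other difference between the mouse lines near Ncor1 cannot be told apart.

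**Figure D2:**
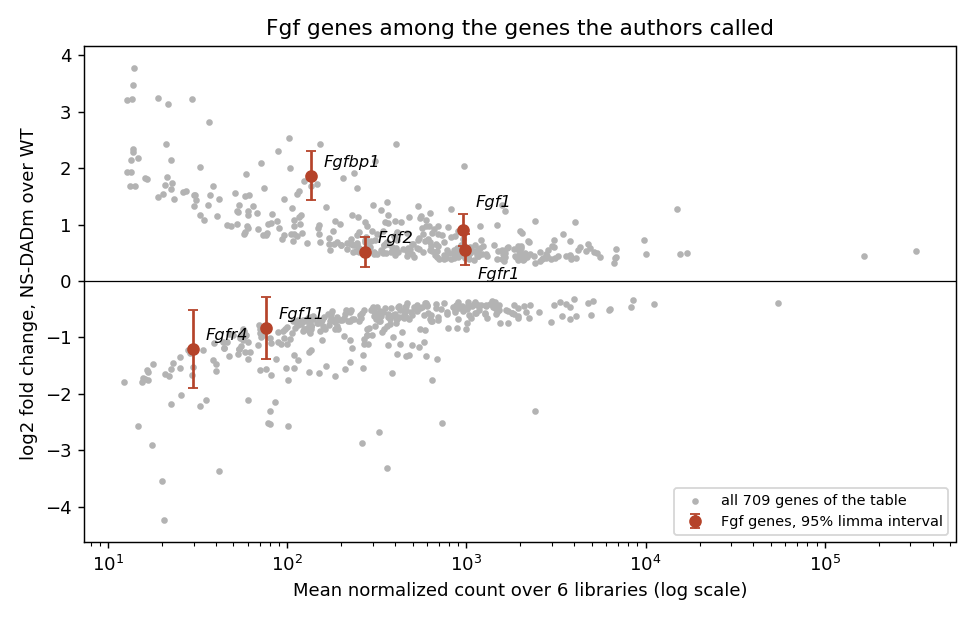
Log2 fold change of NS-DADm over WT (y axis) against the mean normalized count over 6 libraries (x axis, log scale) for the 709 listed genes (grey) and the 6 Fgf genes (red, with limma 95% intervals). Fgfbp1 stands highest among the Fgf genes at 1.87, Fgf1, Fgfr1 and Fgf2 lie between 0.52 and 0.90, and Fgf11 and Fgfr4 lie at -0.83 and -1.20 among genes of low count; the empty band around 0 comes from the authors' selection.

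To compare levels between genes, normalized counts were divided by the merged exon length of each gene in GENCODE M21, which takes no account of the isoforms in use. In NS-DADm muscles the levels per kb were 228 ± 25.8 for Fgf1, 118 ± 16.2 for Fgfr1, 94.1 ± 17.9 for Fgfbp1, 47.0 ± 1.71 for Fgf2, 17.9 ± 4.40 for Fgf11 and 4.87 ± 0.80 for Fgfr4 (SD, n = 3). In WT muscles they were 122 ± 16.7 for Fgf1, 79.9 ± 6.90 for Fgfr1, 32.8 ± 1.03 for Fgf2, 32.1 ± 7.52 for Fgf11, 25.4 ± 4.70 for Fgfbp1 and 11.9 ± 4.01 for Fgfr4 (SD, n = 3). Fgf1 was thus the highest and Fgfr4 the lowest of the 6 in both genotypes on this scale. Fgfbp1 took the third place in NS-DADm muscles and the fifth in WT muscles. Its libraries overlapped those of Fgfr1 in NS-DADm (80.5 to 114 per kb for Fgfbp1 and 107 to 137 for Fgfr1). In WT they overlapped those of Fgf11 (22.1 to 30.8 per kb for Fgfbp1 and 23.7 to 38.0 for Fgf11), and Fgf11 overlapped Fgf2. The ranges alone thus do not separate these neighbours in the order. Within single WT libraries, Fgf11 stood above Fgfbp1 each time, at 34.8 against 30.8, 38.0 against 22.1 and 23.7 against 23.3 per kb. The order of Fgfbp1 and Fgfr1 in NS-DADm, and of Fgf11 and Fgf2 in WT, differed between libraries.

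A ratio of 2 genes within a library does not depend on that library's size factor. The ratio of Fgf1 to Fgf2 normalized counts was 3.90, 4.25 and 3.55 in NS-DADm libraries, against 2.86, 2.76 and 3.37 in WT libraries. The groups did not overlap, but the lowest NS-DADm ratio was close to the highest WT ratio. The mean log2 ratio was 0.38 higher in NS-DADm, a 1.30-fold difference (exact two-sided permutation p = 0.1, the smallest that 3 mice against 3 can give). For the receptors, the ratio of Fgfr4 to Fgfr1 normalized counts was 0.0150, 0.0114 and 0.0188 in NS-DADm libraries, against 0.0669, 0.0490 and 0.0416 in WT libraries. Put the other way, there were 53.1 to 87.8 Fgfr1 normalized counts for each Fgfr4 count in NS-DADm and 15.0 to 24.0 in WT. The mean log2 ratio differed by -1.80 (NS-DADm minus WT), 3.48-fold lower in NS-DADm (exact two-sided permutation p = 0.1, again the smallest possible). Both pairs come from genes already selected for a difference, so neither test is independent evidence.

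**Figure D3:**
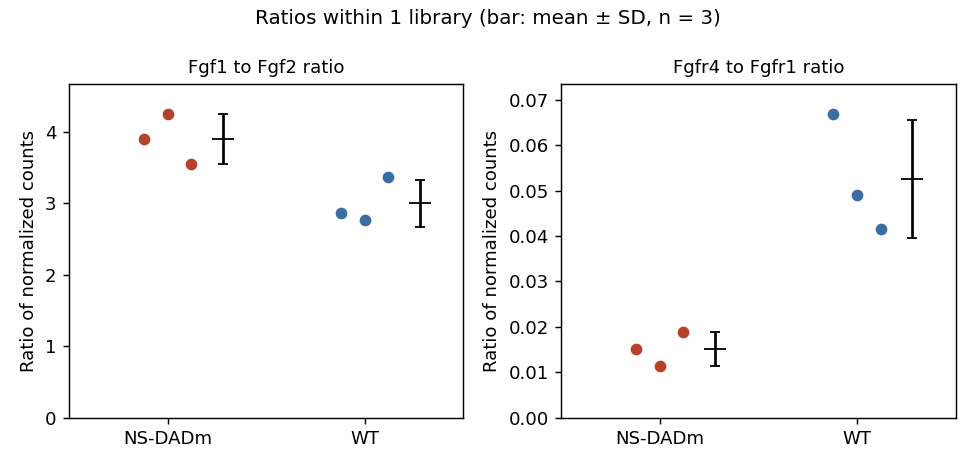
Ratio of normalized counts within each library (y axes, linear, from 0) for Fgf1 to Fgf2 and for Fgfr4 to Fgfr1, with NS-DADm left, WT right and a bar for the mean ± SD of 3 mice. The Fgf1 to Fgf2 ratios lie between 3.55 and 4.25 in NS-DADm and between 2.76 and 3.37 in WT, and the Fgfr4 to Fgfr1 ratios between 0.0114 and 0.0188 in NS-DADm and between 0.0416 and 0.0669 in WT.

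The other genes of the pathway were taken from 4 lists with 103 symbols. Of these, 4 were in the table, 3 higher and 1 lower in NS-DADm by limma, out of 361 higher and 348 lower genes in all. Of 24 co-receptors and matrix partners only Gpc1 was listed. Glypican 1, its product, is a heparan sulfate proteoglycan that binds FGF2 at the cell surface. Gpc1 had normalized counts of 4093, 3689 and 4047 in NS-DADm muscles, against 5569, 5895 and 6556 in WT muscles, with a log2 fold change of -0.61 ± 0.10 (SE, limma adjusted p = 4.67e-04). It was thus lower in every NS-DADm mouse while the secreted ligands Fgf1 and Fgf2 were higher.

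Of 44 adaptors and kinases 3 were listed, all higher in NS-DADm, where 50.9% of all listed genes were higher. Stat5a, a transcription factor activated by cytokine and growth factor receptors, had normalized counts of 302 ± 14.0 in NS-DADm and 200.0 ± 17.2 in WT (SD, n = 3 each), 1.51-fold higher (limma adjusted p = 0.00176). Pik3cd, a catalytic subunit of PI3 kinase known mainly from leukocytes, was 1.41-fold higher at 398 ± 24.4 in NS-DADm and 283 ± 12.2 in WT (limma adjusted p = 0.00254). Mapk14, the p38 alpha kinase that promotes myogenic differentiation, was 1.33-fold higher at 3052 ± 148 in NS-DADm and 2288 ± 115 in WT (limma adjusted p = 0.00178). None of these 3 was called higher when libraries were scaled by their totals, and Mapk14 also missed the threshold under quantile normalization (limma adjusted p = 0.0643). They act below many receptors besides those for FGF. Of the 18 feedback inhibitors, which include the Sprouty and Spred genes and Dusp6, and of the 17 target genes of the FGF-ERK route, which include Etv4, Etv5 and Egr1, 0 were listed. These genes have no value here, so neither a change nor its absence can be read from them.

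For Fgf11, 0 of 15 symbols on a list of voltage-gated sodium channels and their partners were in the table. For Fgfbp1, a list of 23 neuromuscular junction and denervation genes had 4 in the table, 2 higher and 2 lower by limma, where 50.9% of the listed genes were higher and 49.1% lower. Chrna1, the alpha subunit of the muscle acetylcholine receptor, was 1.46-fold higher at 206 ± 13.9 in NS-DADm and 141 ± 15.8 in WT (SD, n = 3 each, limma adjusted p = 0.00455). When libraries were scaled by their totals, its log2 fold change was 0.27 in place of 0.54 and was not called (limma adjusted p = 0.135). Runx1, a transcription factor induced in denervated muscle, was 2.35-fold higher. The libraries held 34.9, 65.3 and 70.0 normalized counts in NS-DADm muscles, against 21.7, 22.8 and 27.9 in WT muscles, so 1 NS-DADm mouse lay near WT (limma adjusted p = 0.00394). Chrnb1, the beta subunit of the same receptor, was 1.56-fold lower at 347 ± 48.5 in NS-DADm and 542 ± 73.7 in WT (limma adjusted p = 0.00190). Chrnb1 lies next to Fgf11, so the limit given there for differences near Ncor1 holds for it too. Rapsn, which clusters the receptor, was 1.51-fold lower at 310 ± 29.9 in NS-DADm and 469 ± 51.6 in WT (limma adjusted p = 0.00177).

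**Figure D4:**
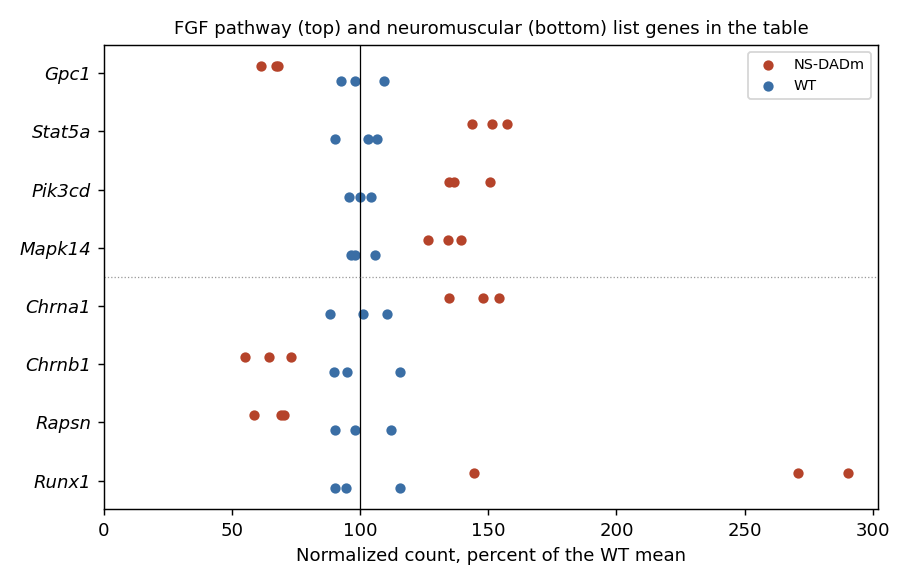
Normalized count of each library as a percent of the WT mean (x axis, from 0) for the genes of the FGF pathway lists (top) and the neuromuscular list (bottom) that were in the table, with NS-DADm points above WT points in each row and a line at 100%. Stat5a, Pik3cd, Mapk14, Chrna1 and Runx1 lie to the right of WT, and Gpc1, Chrnb1 and Rapsn to the left.

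Chrnb1 is also the next gene after Fgf11 on the same strand. In GENCODE M21 it occupies chromosome 11 from 69784036 to 69795943, so that 124 bases separate the end of Fgf11 from the start of Chrnb1. Both were lower in NS-DADm, Chrnb1 by -0.64 ± 0.14 (SE) on the log2 scale. The limit given for Fgf11, that the mutation and other line differences near Ncor1 cannot be told apart, holds for Chrnb1 too. Reads that run from one gene into the other were not examined. Within 1 Mb of the start of an Fgf gene there were 7 listed genes, 4 of which moved in the same direction as the Fgf gene, a count read against 50.9% higher and 49.1% lower among all listed genes and so near the background. Next to Fgf1, Arhgap26, a GTPase-activating protein, was 2.03-fold higher and starts 63.7 kb away. GENCODE M21 holds another entry of that name, not listed, which overlaps Fgf1 on the opposite strand and shares 0 exonic bases with it. Unc5a, a netrin receptor that starts 203 kb from Fgfr4, was lower at 187 ± 24.0 normalized counts in NS-DADm and 579 ± 70.0 in WT (SD, n = 3 each), with a log2 fold change of -1.63 ± 0.14 (SE, limma adjusted p = 1.69e-05). Pld2, a phospholipase D, starts 738 kb from Fgf11, was at 0.616 times its WT level and has the same limit as Fgf11. Cc2d2a and Cpeb2, near Fgfbp1, were at 0.614 and 0.512 times WT, and Plekha2, near Fgfr1, at 0.522 times WT, all opposite to their Fgf neighbour.

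The listed genes whose pattern over the 6 libraries was most like that of each Fgf gene were named by Pearson correlation of log2(normalized count + 1). All points of these correlations share the genotype difference by which the table was selected, so the values are descriptions with no test. For Fgfbp1 they included Gstm2, a glutathione transferase (r = 0.992). For Fgf1 they were Mlec, a carbohydrate-binding protein of the endoplasmic reticulum (r = 0.997), and Mrc1, the macrophage mannose receptor (r = 0.995). For Fgf2 they were Gas6, a ligand of the TAM receptors (r = 0.997), and Pla2g16, a phospholipase (r = 0.996), and for Fgfr1 Mrln, the SERCA-inhibiting micropeptide myoregulin (r = 0.988), and Cst3, cystatin C (r = 0.988). For Fgf11 they were the kinase Prkx (r = 0.975) and Asl, argininosuccinate lyase (r = 0.973), and for Fgfr4 Gm15675 (r = 0.977) and 2510009E07Rik (r = 0.975). Fgf2 had 103 listed genes with r above 0.95 and Fgf11 and Fgfr4 had 12 each.

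Markers of other cell types that the muscle could hold were checked beside these results. Of 61 symbols for satellite cells, endothelial cells, fibroblasts, adipocytes, macrophages, Schwann cells and epithelial cells, 1 was in the table. This was Mrc1, 1 of 9 macrophage markers, with normalized counts of 276, 296 and 224 in NS-DADm muscles, against 126, 120 and 144 in WT muscles. Its 2.04-fold difference moved with that of the Fgf ligands, and its part in them was not tested. The satellite cell markers, Pax7 and Myod1 among them, have no value here. Of 15 markers of muscle fibres, the tissue named in the labels, Ttn and Actn3, the fast-fibre alpha-actinin, were listed. Ttn was 1.46-fold higher in NS-DADm (limma adjusted p = 0.00708) and Actn3 1.36-fold higher (limma adjusted p = 0.0137), folds near those of Fgf2 and Fgfr1, and their part in the Fgf results was not tested. Neither was called when libraries were scaled by their totals (log2 fold changes 0.26 and 0.18) or under quantile normalization. Ncor1 and Hdac3 were not listed, and as the mutations change the protein and not the gene's presence, the level of the mutated transcripts would not check the genotype labels.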

How the data were processed

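TA muscles of 3 NS-DADm and 3 WT mice were profiled by RNA-seq, 1 library each, and grouped by sample titles. The authors aligned reads to mm10 (GRCm38), with STAR (2.5.3a) according to the paper and with TopHat2 (2.1.0), HTSeq and DESeq2 (1.8.2) according to the submitters' processing notes. This conflict is unsettled, and no source used here states the annotation or the strand setting. The deposited signal is the authors' normalized count, reads divided by a size factor per library. The table holds only the 709 genes called by the authors at a 5% false discovery rate, and also their group means, fold changes and p-values, which were not used. Total depth is unknown. No other column of per-sample values was present.

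log2(normalized count + 1) was compared with limma (version 3.58.1, R 4.3.3), two-sided and with a mean-variance trend, and p-values were adjusted by the Benjamini-Hochberg method over all 709 genes, with no filter, a scale that understates the change of low genes. Folds divide one group mean by the other, whereas limma gave the log2 fold changes with their standard errors (SE). The limma code was run on simulated counts in which most genes were unchanged and the others only rose. The listed genes were all selected as changed, in both directions, so that run does not bear on the calls given here. Other steps used Python 3.11.15, pandas 2.3.3 and scipy 1.17.1. Positions and exon lengths are from GENCODE M21 (GRCm38), to which 706 gene IDs matched, and upstream sequences from RefSeq (GRCm38.p6). Named genes are the Fgf genes, members of the FGF, sodium channel, neuromuscular and marker lists in the table, the 2 most correlated genes and listed genes within 1 Mb of an Fgf gene, apart from some items that are not reported here. The members and lists were chosen with earlier results of these data known. Same-numbered libraries showed correlations of deviations of -0.149, 0.148 and 0.0502, and were taken as unpaired.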

Additional observations from a re-analysis of the deposited data

How the results depend on the processing

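Across the alternatives, 460 of 474 values, over the 34 genes that the naming rule gives, stayed on the same side of 0 and of the threshold, and 14 missed the threshold. Scaling by the totals over the listed genes left 3 Fgf genes called higher (Fgf2 missed) and 2 lower, 0 FGF pathway list genes higher in place of 3, and 218 higher and 348 lower listed genes in place of 361 and 348. It shifted the median of all genes by -0.28 and quantile normalization by -0.26 on the log2 scale. Ttn, which made up 23.4% to 31.9% of the totals over the listed genes, was left out in a scaling chosen after seeing the data. All 6 Fgf genes then kept their calls and 329 listed genes were higher. Actn3 missed the threshold (limma adjusted p = 0.0684), and the median was still shifted by -0.18. A minimum mean of 50 normalized counts removed Fgfr4, leaving 1 Fgf gene lower. Quantile normalization gave Ttn and Actn3 a log2 fold change of 0, since genes of equal rank get equal values. Leaving out each library in turn gave 4 Fgf genes higher and 2 lower throughout, 358 to 361 listed genes higher and 345 to 348 lower. The log2 difference of the Fgf1 to Fgf2 ratio then lay between 0.32 and 0.47, and that of Fgfr4 to Fgfr1 between -1.98 and -1.61. With the replicate block 4 Fgf genes were higher and 2 lower, and it changed no call of a named gene. The planned tests on recovered reads with edgeR and DESeq2 were not run. All values were whole multiples of the step, but a separate check of recovered reads needs more low values than the selected table holds. Apart from the authors' own selection of the genes, the calls given here thus rest on limma alone. Depth limits Fgfr4 and Fgf11 most, at 15 to 64 and 37 to 127 reads per library. As the genes were selected on these libraries, such stability is partly built in.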
